A study of Homo sapiens with 8 samples.

Results

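The centromere of chromosome 4 was described from the genomic sites recovered with probes against α-satellite RNA. Its peaks were taken as every listed peak on chromosome 4 with a start from 49000000 up to 56 Mb on build hs1, which gave 957 of the 33553 peaks of the mitotic list and 791 of the 32035 peaks of the asynchronous list. The stretch was divided by position into 3 blocks. The block on the p-arm side has starts below 51000000, the middle block has starts from there to 54899999, and the block on the q-arm side holds the peaks beyond. Positions alone chose these peaks, and no signal value was used.

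The mitotic group was wild-type RPE1 cells collected in mitosis, labelled Meta, and the group it was set against was wild-type RPE1 cells from an asynchronous culture, labelled Async. RPE1 cells derive from human retinal pigment epithelium and were immortalised. In each condition biotinylated antisense probes were used to pull α-satellite RNA and the DNA held with it out of sonicated chromatin, a method called ChIRP, and the Odd and Even probe libraries were merged before peaks were listed. The study thus gave 1 peak list per condition, without a replicate, and how mitotic cells were obtained is not stated in the labels. No difference between the conditions was therefore tested, and every interval below is an exact 95% interval that covers counting error only and treats neighbouring peaks as independent. Sequencing depth behind the lists is unknown. The input and Scr libraries were not analysed here, so DNA held by RNA and DNA paired directly with the probes cannot be told apart.

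α-Satellite is the tandem repeat on which human centromeres are built. Its monomers are arranged in higher-order repeats, and the kinetochore forms on part of such an array. Arrays are transcribed, and their RNA can stay with the chromatin of the centromere. On some chromosomes, chromosome 4 among them, the array is known to be broken up by other satellite DNA. No annotation or sequence of build hs1 was used here, so blocks are given by position and no repeat, gene or sequence is assigned to them.

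In both lists the 3 blocks set by position were parted by 2 empty stretches. The limits between the blocks lie inside these stretches and were chosen with earlier results of these data known. The p-arm side block ran from 49704952 to 50433123 in the mitotic list and from 49704825 to 50433059 in the asynchronous list. The middle block ran from 52115350 to 54870247 in the mitotic list, against 52114853 to 54869597 in the asynchronous list. The q-arm side block ran from 54980354 to 55297848 in the mitotic list, against 54980755 to 55299094 in the asynchronous list. The outer edges thus differed by 64 to 650 bp between the lists for the first 2 blocks, and by 401 and 1246 bp for the q-arm side block. Over both lists the blocks spanned 728 kb, 2.76 Mb and 319 kb.

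**Figure D1:**
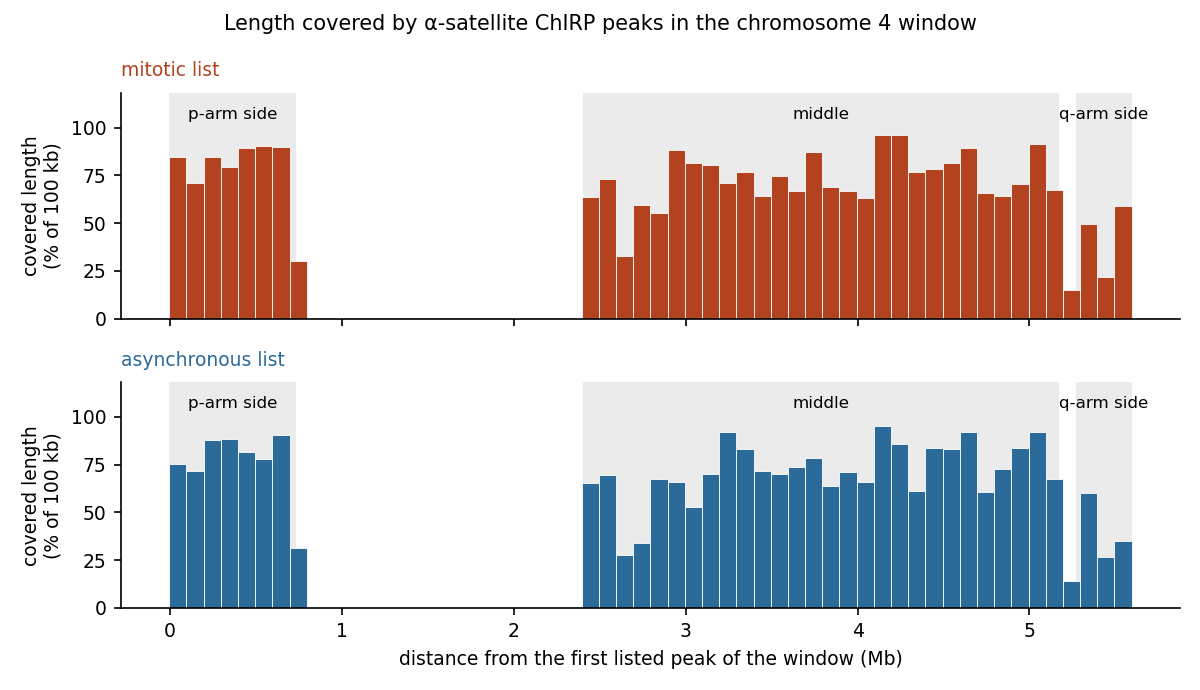
Length covered by listed peaks per 100 kb of the chromosome 4 window, in percent, in the mitotic (top) and the asynchronous list (bottom), against the distance from the first listed peak in Mb. Grey bands mark the 3 blocks, and bars at the edge of a block include empty sequence. Both lists are empty over the 1.68 Mb between the p-arm side and the middle block.

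Neither list held a peak in the 1.68 Mb between the p-arm side and the middle block (50433124 to 52114852), the longest empty stretch of the window. The peak names carry running numbers in genome order, and missing numbers were taken as calls that were made and then removed before deposit. Over this stretch only 7 numbers were missing from the mitotic and 10 from the asynchronous list, so few calls were counted there at all. The shorter stretch between the middle and the q-arm side block (54870248 to 54980353, 110.1 kb) was also empty in both lists, with 0 mitotic and 4 asynchronous numbers missing. The window began with 705 kb without a peak before the first block and ended with 701 kb without a peak after the last. The nearest listed peak outside the window lay 7.40 Mb before the first peak of the p-arm side block in the mitotic list and 4.05 Mb before it in the asynchronous list. The nearest one after the last peak of the q-arm side block lay 2.29 Mb away in the mitotic list and 74.2 Mb away in the asynchronous list.

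The 3 blocks differed in how completely they were covered. The p-arm side block was covered over 84.9% of its span in the mitotic and 83.0% in the asynchronous list. The middle block reached 74.4% in the mitotic and 72.6% in the asynchronous list, and the q-arm side block 45.4% and 42.6%. The middle block carried most of the covered length of the window, 72.9% of it in the mitotic and 73.0% in the asynchronous list. The q-arm side block carried 5.15% of the covered length in the mitotic list and 4.96% in the asynchronous list, but 10.6% and 15.5% of the peaks.

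Peaks of the p-arm side and middle blocks were long for these lists. In the mitotic list the median width was 2244 bp in the p-arm side block, 2069 bp in the middle block and 620 bp in the q-arm side block. In the asynchronous list the medians were 3280.5 bp, 2457.5 bp and 618 bp. The median over all listed peaks was 796 bp in the mitotic and 868 bp in the asynchronous list. The p-arm side median lay at the 85.0th percentile of widths of the mitotic list and at the 91.7th of the asynchronous list.

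The order of the blocks was the same for the authors' fold enrichment, the ratio of pileup to local background that their peak caller gave to each peak. Within the mitotic list its median was 10.1 in the p-arm side block, 8.55 in the middle block and 7.53 in the q-arm side block, against 7.98 over the whole list. Within the asynchronous list the medians were 10.2, 8.79 and 6.65, against 7.73 over the whole list. The p-arm side median stood at the 76.2th percentile of the mitotic and the 79.4th percentile of the asynchronous list, and the q-arm side median at the 43.3th and the 35.0th. Peaks enriched 6-fold or more at a −log10 q of 5 or above, called strong here, made up 93.3% of mitotic (88.4 to 96.6%) and 92.6% of asynchronous peaks (85.9 to 96.7%) in the p-arm side block. In the middle block it was 93.9% (91.9 to 95.6%) and 92.0% (89.4 to 94.1%), and in the q-arm side block 74.3% (64.6 to 82.4%) and 57.7% (48.5 to 66.6%). Of all listed peaks 77.6% in the mitotic and 73.7% in the asynchronous list were strong. The share on the q-arm side thus lay below the whole list in the asynchronous condition, and its mitotic interval included the level of the whole list.

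Fewer numbered calls were kept in the q-arm side block than in the others. By the running numbers, the mitotic list kept 165 of 218 calls in the p-arm side block (75.7%, 69.4 to 81.2%), 691 of 1013 in the middle block (68.2%, 65.2 to 71.1%) and 101 of 222 in the q-arm side block (45.5%, 38.8 to 52.3%). The asynchronous list kept 108 of 148 (73.0%, 65.1 to 79.9%), 560 of 795 (70.4%, 67.1 to 73.6%) and 123 of 255 (48.2%, 42.0 to 54.6%). Over the whole lists 22.4% of mitotic and 42.4% of asynchronous numbers were present. The kept shares of all 3 blocks were higher than this in both lists. Only the asynchronous interval of the q-arm side block included the level of its list. The kept shares of the 2 lists overlapped within each block, and in both lists the q-arm side block stood apart from the other blocks. The test by which calls were removed is not stated in the labels.

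The comparison of mitotic with asynchronous cells asked whether the recovered stretches of the centromere differ at mitosis. The mitotic list held more and shorter peaks than the asynchronous list in the p-arm side and middle blocks, over nearly the same length of sequence. In the p-arm side block there were 165 mitotic and 108 asynchronous peaks, a ratio of 1.53 (1.19 to 1.97), with 619 kb covered in the mitotic and 604 kb in the asynchronous list, a ratio of 1.02. In the middle block there were 691 and 560 peaks, a ratio of 1.23 (1.10 to 1.38), with 2051 kb and 1999 kb covered, a ratio of 1.03. The q-arm side block had 101 mitotic and 123 asynchronous peaks, a ratio of 0.821 (0.625 to 1.08) whose interval included 1 and whose direction turned under both filters given below, with 145 kb and 136 kb covered, a ratio of 1.07. Over the whole lists the ratio of peak counts was 1.05 (1.03 to 1.06) and that of covered length 1.01.

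**Figure D2:**
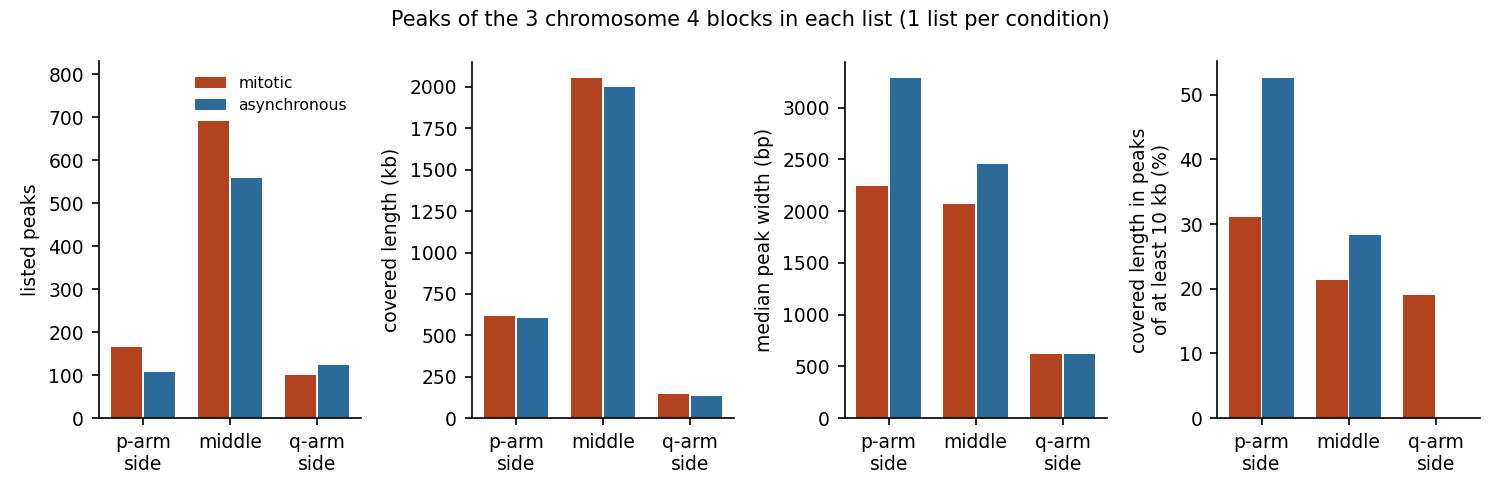
Number of listed peaks, covered length in kb, median peak width in bp, and share of the covered length that lies in peaks of at least 10 kb, for the 3 chromosome 4 blocks in the mitotic (red) and the asynchronous list (blue). Covered length is nearly equal in the lists, while the p-arm side and middle blocks have more and shorter peaks in the mitotic list; there are no replicates and no error bars.

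The count ratios of the middle and q-arm side blocks depended on the peaks counted. Among strong peaks the ratios were 1.54 (1.19 to 2.001) and 1.26 (1.12 to 1.42), and on the q-arm side 75 mitotic and 71 asynchronous peaks gave 1.06 (0.753 to 1.48). Among the 25% of each list with the highest fold enrichment, the p-arm side block had 86 mitotic and 63 asynchronous peaks, a ratio of 1.37 (0.975 to 1.92). There the middle block turned round, with 126 mitotic and 160 asynchronous peaks, a ratio of 0.787 (0.619 to 1.001). The 14 mitotic and 12 asynchronous peaks of this kind on the q-arm side gave 1.17 (0.501 to 2.76). When neighbouring peaks of a list were joined over gaps of up to 1000 bp, the p-arm side block came to 20 mitotic and 15 asynchronous stretches, a ratio of 1.33 (0.649 to 2.80), and the middle block to 144 and 109, a ratio of 1.32 (1.02 to 1.71). Joining gave 41 and 48 stretches on the q-arm side, a ratio of 0.854 (0.549 to 1.32), which kept its direction.

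Long peaks carried less of the covered length in the mitotic list. In the p-arm side block, peaks of at least 10 kb numbered 13 and held 31.1% of the covered length in the mitotic list, against 18 peaks and 52.5% in the asynchronous list. In the middle block 33 mitotic peaks of this size held 21.3%, against 39 peaks and 28.4% in the asynchronous list. The q-arm side block had 2 such peaks in the mitotic list, with 19.1% of its covered length, and 0 in the asynchronous list. Over the whole lists peaks of this size held 14.0% of the covered length in the mitotic and 12.7% in the asynchronous list.

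**Figure D3:**
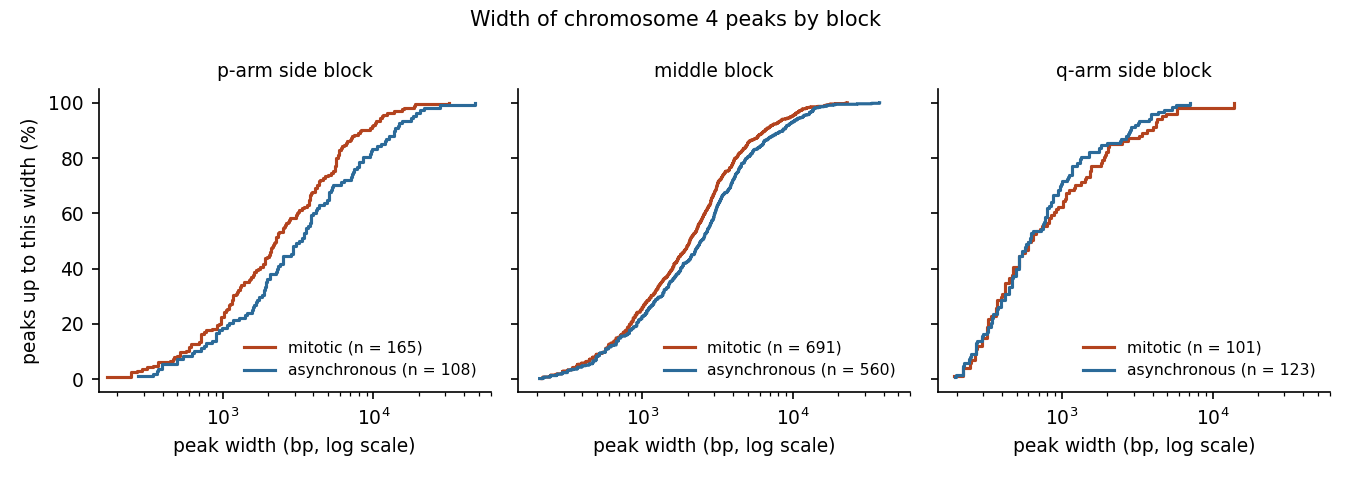
Cumulative share of peaks, in percent, up to a given width in bp (log scale), for the p-arm side, middle and q-arm side blocks of chromosome 4. The mitotic curve (red) lies to the left of the asynchronous curve (blue) over most of the range in the p-arm side and middle blocks, with median widths of 2244 against 3280.5 bp and 2069 against 2457.5 bp, and the curves nearly coincide up to the median in the q-arm side block.

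A single asynchronous peak often met several mitotic peaks. In the p-arm side block, 32 of 165 mitotic peaks met at least 2 asynchronous peaks (19.4%, 13.7 to 26.3%), while 53 of 108 asynchronous peaks met at least 2 mitotic ones (49.1%, 39.3 to 58.9%). In the middle block 136 of 691 mitotic peaks did so (19.7%, 16.8 to 22.8%), against 186 of 560 asynchronous ones (33.2%, 29.3 to 37.3%). On the q-arm side the shares ran the other way, with 11 of 101 mitotic peaks (10.9%, 5.56 to 18.7%) and 8 of 123 asynchronous peaks (6.50%, 2.85 to 12.4%), and these intervals overlapped. Over the whole lists 12.4% of mitotic peaks met at least 2 asynchronous peaks and 14.2% of asynchronous peaks met at least 2 mitotic peaks. A longer peak can meet more peaks of the other list, and median widths were greater in the asynchronous list in the p-arm side and middle blocks. Whether peak width, depth or the threshold of the peak caller took part in these shares was not tested.

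At the asynchronous peaks named here, the breaks between the mitotic peaks that met them were short. The widest asynchronous peak of the p-arm side block (50003878 to 50051195, 47.3 kb, fold enrichment 12.4) was covered over 98.7% of its length by 5 mitotic peaks. These included the widest mitotic peak of the block (50004378 to 50036073, 31.7 kb, fold enrichment 11.5), and the gaps between the 5 were 104 to 253 bp. The asynchronous peak of the middle block that met the most mitotic peaks (52966201 to 52999497, 33.3 kb, fold enrichment 9.48) was covered over 95.7% by 10 mitotic peaks of 292 to 9595 bp, with gaps of 103 to 209 bp between them. In the p-arm side block the corresponding peak (50404451 to 50419995, 15.5 kb, fold enrichment 10.6) met 8 mitotic peaks of 245 to 6117 bp, with gaps of 109 to 606 bp and 87.2% of it covered. No 2 neighbouring peaks of either list lay less than 101 bp apart, so gaps near this size are the shortest that the lists contain. The peaks of 33.3 and 15.5 kb were picked for the number of peaks they met, after the values had been seen.

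**Figure D4:**
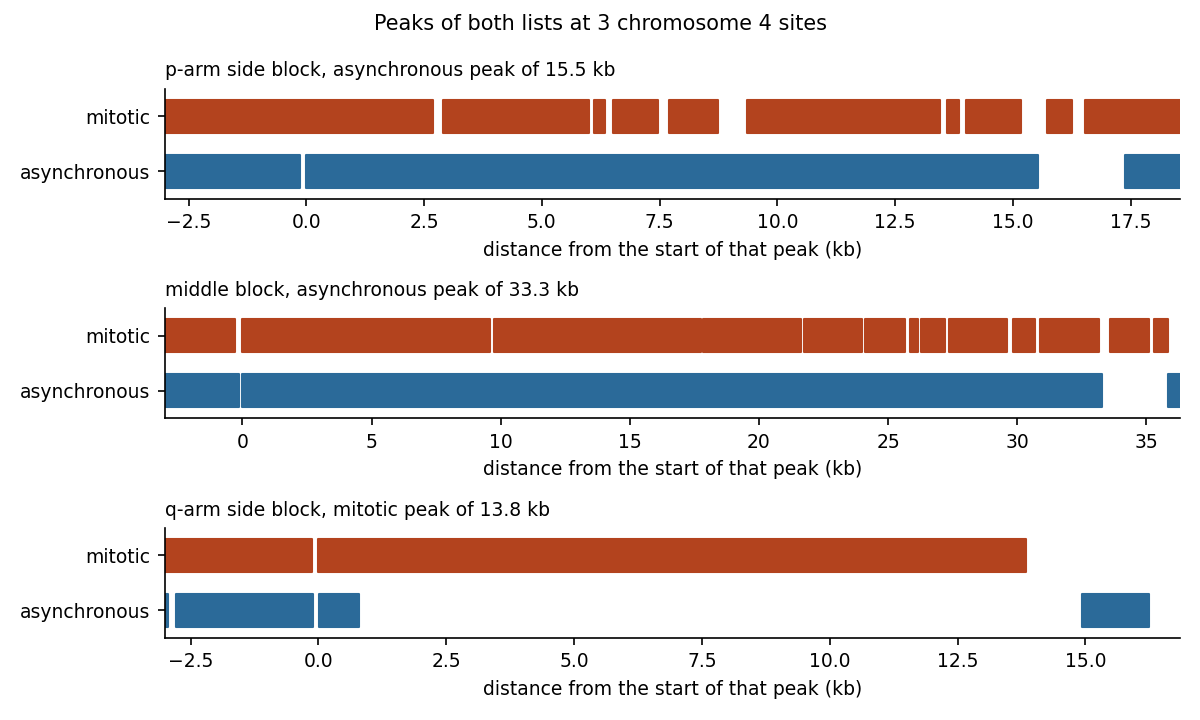
Listed peaks of the mitotic (red, upper row) and asynchronous list (blue, lower row) at 3 sites of chromosome 4, as bars against the distance in kb from the start of the named peak. The asynchronous peaks of 15.5 and 33.3 kb meet 8 and 10 mitotic peaks, and the mitotic peak of 13.8 kb in the q-arm side block meets an asynchronous peak over only its first 793 bp.

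Short gaps were frequent throughout the dense blocks. In the p-arm side block 62.2% of gaps between neighbouring peaks were under 300 bp in the mitotic list (54.3 to 69.6%) and 59.8% in the asynchronous list (49.9 to 69.2%). In the middle block the shares were 53.9% (50.1 to 57.7%) and 61.0% (56.8 to 65.1%), and in the q-arm side block 25 of 100 mitotic gaps (16.9 to 34.7%) and 29.5% of asynchronous gaps (21.6 to 38.4%) were this short. Over the whole lists they were 38.7% in the mitotic and 41.9% in the asynchronous list. In the middle block the mitotic share was the lower, with overlapping intervals, and the median gap was 257 bp against 228 bp in the asynchronous list. The count ratio of that block was 1.23 before and 1.32 (1.02 to 1.71) after gaps of up to 1000 bp were closed. The longest joined stretch, with gaps of up to 1000 bp closed, measured 208 kb in the mitotic and 173 kb in the asynchronous list, both in the middle block.

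Dense regions of the genome were formed by joining peaks of both lists over gaps of up to 100 kb. Of 65 such regions, the 37 with at least 50 peaks in each list were ranked, the 3 chromosome 4 blocks included, and among these the p-arm side and middle blocks had the highest ratios of mitotic to asynchronous peak counts. The ratios of 1.53 and 1.23 ranked 1 and 2 of 37, and that of the q-arm side block, which changed direction with the filter, ranked 34. The other 34 regions ranged from 0.775 to 1.19, with a median of 0.946. The highest of them, on chromosome 16 (35680034 to 37863373), had 716 mitotic and 602 asynchronous peaks and an interval of 1.07 to 1.33, which overlapped those of both chromosome 4 blocks. Intervals also lay wholly above 1 for regions of X (1.18, 1.10 to 1.26) and chromosome 11 (1.13, 1.06 to 1.20). The same held for regions of chromosome 17 (1.12, 1.05 to 1.20) and chromosome 1 (1.10, 1.04 to 1.16). The ratios of covered length of the 3 blocks ranked 20, 18 and 9 in the same order. Regions with fewer than 50 peaks in either list had no rank, whatever their ratio. Since the blocks were singled out with results of these lists known, the ranks are a description.

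**Figure D5:**
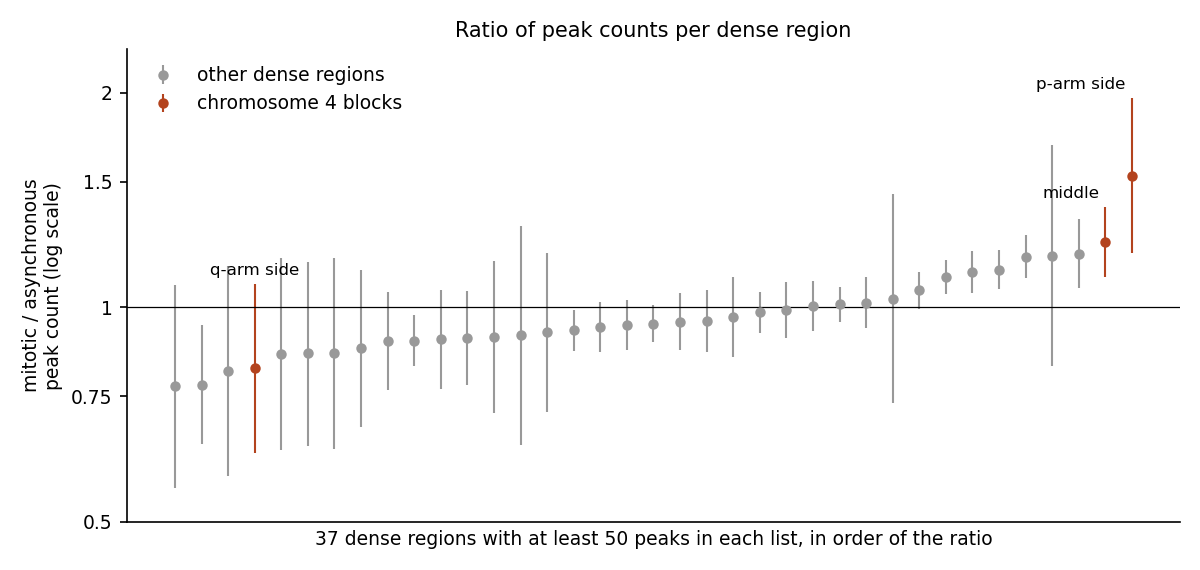
Ratio of mitotic to asynchronous peak counts (log scale) in the 37 dense regions with at least 50 peaks in each list, in order of the ratio; points are ratios and bars exact 95% intervals for counting error only. The p-arm side (1.53) and middle blocks (1.23) of chromosome 4 lie at the upper end and the q-arm side block (0.821) near the lower end, with intervals that overlap those of other regions.

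By the share of asynchronous peaks that met at least 2 mitotic peaks, the p-arm side block ranked 1 of the 37 regions with 49.1%, and the middle block ranked 4 with 33.2%. The other 34 regions ranged from 0 to 33.3% with a median of 12.9%. In the regions of chromosomes 1, 11, 16, 17 and X named above, this share also exceeded the mitotic one. It was 21.9% against 9.02% on X and 19.8% against 8.91% on chromosome 11. Elsewhere it could run the other way, with 17.1% against 22.1% on chromosome 18. By median width in the asynchronous list the p-arm side and middle blocks ranked 2 and 5, and the other regions had a median of 870 bp. On chromosome 3, whose α-satellite is also known to be interrupted, no region had an interval wholly above 1. Its most covered region (91711151 to 92595749) had 74 mitotic and 72 asynchronous peaks, a ratio of 1.03 (0.733 to 1.44), and the region before it (90340404 to 91480644) had 194 and 249, a ratio of 0.779 (0.642 to 0.944). A further region (95863405 to 96497722) had 119 and 129, a ratio of 0.922 (0.713 to 1.19). The interval of the region with the ratio of 0.779 did not overlap those of the p-arm side and middle blocks of chromosome 4, whereas that of the most covered region did.

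The conditions shared most of the covered sequence of chromosome 4, and least of it in the q-arm side block. At an overlap of at least 1 bp, 818 of 957 mitotic peaks of the window met an asynchronous peak (85.5%, 83.1 to 87.6%), against 79.2% of the whole mitotic list. Of the asynchronous peaks 697 of 791 met a mitotic peak (88.1%, 85.7 to 90.3%), against 81.9% of the whole asynchronous list. By block the shares were 92.1% of mitotic (86.9 to 95.7%) and 94.4% of asynchronous peaks (88.3 to 97.9%) on the p-arm side. They were 85.4% (82.5 to 87.9%) and 91.6% (89.0 to 93.8%) in the middle, and 75.2% (65.7 to 83.3%) and 66.7% (57.6 to 74.9%) on the q-arm side. The asynchronous share of the q-arm side block was the only one whose interval lay wholly below the level of its list. Shared over combined length, the Jaccard index, was 82.2% on the p-arm side, 66.4% in the middle and 49.8% on the q-arm side, against 67.9% over the whole lists. This index rises with the covered share of a region, which fell in the same order. Whether the covered share set the order of the blocks was not tested.

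Requiring a reciprocal overlap of at least 50% put the blocks of the mitotic list in the opposite order, with intervals that overlapped. On the p-arm side 65 of 165 mitotic peaks met this rule (39.4%, 31.9 to 47.3%) and 65 of 108 asynchronous peaks (60.2%, 50.3 to 69.5%). In the middle 305 of 691 mitotic peaks did (44.1%, 40.4 to 47.9%) and 305 of 560 asynchronous peaks (54.5%, 50.2 to 58.6%). On the q-arm side 51 of 101 mitotic (50.5%, 40.4 to 60.6%) and 51 of 123 asynchronous peaks did (41.5%, 32.7 to 50.7%). Over the whole lists the rule was met by 51.3% of mitotic and 53.8% of asynchronous peaks. The mitotic shares of the p-arm side and middle blocks thus lay below the whole list under this rule, although they lay above it at 1 bp.

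Peaks with no counterpart covered more sequence in the mitotic list. In the window 139 mitotic peaks without an asynchronous counterpart covered 271 kb, or 9.62% of the mitotic length, and 94 asynchronous peaks without a mitotic counterpart covered 123 kb, or 4.48%. These lengths count only peaks that no peak of the other list touched. By base pair the lists lay closer, with 80.4% of the mitotic and 82.6% of the asynchronous covered length of the window shared. Peaks without a counterpart were a smaller share of the window than of the lists. A counterpart was met by 85.5% of mitotic and 88.1% of asynchronous peaks of the window, against 79.2% and 81.9% over the whole lists. The mitotic list thus had the lower share met in both. Most of the unmatched length lay in the middle block, with 101 mitotic peaks over 233 kb and 47 asynchronous peaks over 88.8 kb. On the q-arm side it ran the other way, with 25 mitotic peaks over 12.9 kb and 41 asynchronous peaks over 27.8 kb. The unmatched mitotic peaks of the middle block had a median fold enrichment of 8.44, close to the 8.55 of matched ones. In the asynchronous list the medians were 7.74 for unmatched and 8.86 for matched peaks. On the q-arm side unmatched peaks were short and low, with a median width of 321 bp and fold enrichment of 5.59 in the mitotic list, and 466 bp and 5.32 in the asynchronous list.

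The widest peak of the window without a counterpart was mitotic and lay near the start of the middle block (52451950 to 52474170, 22.2 kb, fold enrichment 8.94). The asynchronous list had no peak from 52444372 to 52482602, a stretch of 38.2 kb, of which mitotic peaks covered 30017 bp. Just before it, the longest empty stretch of the asynchronous middle block measured 90.7 kb (52336407 to 52427152), and mitotic peaks covered 21294 bp of it. The longest empty stretch of the mitotic middle block measured 46.5 kb (52326920 to 52373426). It held the widest asynchronous peak of that block without a counterpart (52328453 to 52336406, 7.95 kb, fold enrichment 7.71). Both lists were empty over the 37.0 kb from 52336407 to 52373426. On the p-arm side the widest peaks without a counterpart measured 5.64 kb in the mitotic list (49785129 to 49790772) and 3.44 kb in the asynchronous list (50057329 to 50060770).

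Coverage along the window rose and fell at places that were partly shared. Of 34 bins of 100 kb that lay wholly inside a block, 15 were covered more in the mitotic and 19 more in the asynchronous list, with a median difference of -1.06 percentage points, mitotic minus asynchronous. The number of peaks was higher in the mitotic list in 28 of these bins, lower in 4 and equal in 2. All 6 bins of the p-arm side had more mitotic peaks, as did 22 of the 26 in the middle, and both bins of the q-arm side had fewer. The bin from 52.3 to 52.4 Mb was the least covered of the middle block, at 32.7% in the mitotic and 27.6% in the asynchronous list. The bin from 53.8 to 53.9 Mb was the most covered of the middle block in both lists, at 96.3% in the mitotic and 95.4% in the asynchronous list.

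Of the complete bins, those with the greatest difference in either direction lay between 52.4 and 53.0 Mb. From 52.7 to 52.8 Mb the mitotic list covered 81.3% and the asynchronous list 52.6%. From 52.4 to 52.5 Mb the mitotic list covered 59.3% and the asynchronous list 33.9%. From 52.9 to 53.0 Mb the difference was the other way, with 71.1% covered in the mitotic and 91.9% in the asynchronous list. With a single list per condition, the spread expected between cultures for such a bin is unknown.

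The 4 bins with the highest median fold enrichment were the same in both lists and lay before the empty 1.68 Mb and the empty 110.1 kb. The last complete bin of the p-arm side, from 50.3 to 50.4 Mb, had a median fold enrichment of 11.8 within the mitotic and 11.1 within the asynchronous list, and the partly filled bin after it 11.03 from 11 mitotic peaks and 11.06 from only 2 asynchronous peaks. From 54.7 to 54.8 Mb, near the end of the middle block, the medians were 10.8 and 10.7, and from 54.8 to 54.9 Mb 10.5 and 11.1, against 8.55 and 8.79 for the whole middle block. At the other side of the 1.68 Mb the middle block began lower, with medians of 8.78 in the mitotic and 9.40 in the asynchronous list from 52.1 to 52.2 Mb. The highest fold enrichment of each block fell on different peaks in the lists for the first 2 blocks. On the p-arm side it was 14.5 at 49718378 to 49718973 in the mitotic list and 13.5 at 50291426 to 50301994 in the asynchronous list. In the middle it was 13.3 at 54781926 to 54782496 in the mitotic list and 13.7 at 54342426 to 54350923 in the asynchronous list. On the q-arm side both lists reached their highest value at overlapping peaks, 13.2 at 55023502 to 55029319 in the mitotic list and 12.8 at 55025453 to 55029371 in the asynchronous list.

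Coverage on the q-arm side was itself uneven. From 55.0 to 55.1 Mb the mitotic list covered 49.4% and the asynchronous list 60.2%, and from 55.1 to 55.2 Mb 21.7% and 26.6%, with median widths there of 434 and 446 bp. From 55.2 to 55.3 Mb the mitotic list covered 58.9% with 21 peaks, and the asynchronous list 35.0% with 33 peaks. Much of that difference came from the widest mitotic peak of the block (55238727 to 55252570, 13.8 kb, fold enrichment 8.90). It met a single asynchronous peak of 793 bp, which covered 5.73% of it. The widest asynchronous peak of the block (55005401 to 55012471, 7.07 kb, fold enrichment 10.4) was covered over 64.1% by 3 mitotic peaks, and the widest without any counterpart lay just beyond it (55016780 to 55022469, 5.69 kb, fold enrichment 9.57).

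The most frequent spacing of peak starts differed between the lists and between ways of counting it. The most frequent distance under 5000 bp between starts of the middle block, counted in a window of 51 bp, was 3175 bp in the mitotic list, with 21 of 860 pairs, and 2679 bp in the asynchronous list, with 19 of 643 pairs. On the p-arm side it was 4549 bp with 7 of 181 pairs in the mitotic list and 3799 bp with 5 of 83 pairs in the asynchronous list. On the q-arm side it was 600 bp with 6 of 165 pairs in the mitotic list and 4447 bp with 9 of 245 pairs in the asynchronous list. Each of these distances held 2.44 to 6.02% of the pairs counted. An even spread of the pairs of the middle block would put 8.77 mitotic and 6.56 asynchronous pairs in a window of this size. The most frequent distance is the window with the most pairs, so its count exceeds an even spread by construction. In a window of 25 bp the p-arm side gave 1141 bp in the mitotic and 1088 bp in the asynchronous list, and the middle block 2714 and 1186 bp. Peak ends gave 2649 and 1200 bp on the p-arm side. Some distances held under 1 alternative. Peak ends of the mitotic middle block gave 3200 bp, with 27 of 856 pairs against 8.73 for an even spread. The 25 bp window gave 613 bp (mitotic) and 4440 bp (asynchronous) on the q-arm side. None held under both alternatives, so no distance is taken as settled.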

How the data were processed

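Of 8 libraries, the 2 conditions' merged Odd and Even libraries gave 1 deposited peak list each. The submitters' processing notes name fastp, Bowtie2, MACS2 and build hs1, without versions. Not given in the sources used here were caller settings, the control and how reads with several matches were placed, on which coverage in repeats depends. Both lists lack a header, so column meanings were taken from the layout of MACS2 broad output. The deposited pileup signal and −log10 p were not used. The authors' fold enrichment, a ratio, and the deposited −log10 q served to describe, rank or filter peaks within a list. The deposited width, another measure per peak, equals end minus start plus 1. Unnamed score columns deposited by the authors were not used.

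Chromosome 4 peaks were selected by start position. Dense regions, 100 kb bins, peaks of 10 kb or more, gaps under 300 bp and meetings with at least 2 peaks were chosen after the data were seen. Alternatives were strong peaks alone, the top 25% by fold enrichment, joining over 1000 bp, peak ends and a 25 bp window. Overlap required 1 bp, or 50% of both peaks as an alternative. Shares carry Clopper-Pearson and ratios exact conditional binomial 95% intervals. Starts lay 0 to 5 bp past a multiple of 25 bp in 98.9% of mitotic and 98.6% of asynchronous peaks, so positions are resolved to about 25 bp. Code was tested on simulated data with planted overlaps and distances. Computations used scipy 1.17.1, pandas 2.3.3 and numpy 2.4.6 under Python 3.11.15, and plots used matplotlib 3.10.9. No gene is named, because no gene annotation of hs1 was used. Peaks named are the widest, the highest by fold enrichment, the first and last, and the widest without a counterpart per block and list, with the longest empty stretches; others are said to be picked afterwards. The members, blocks and measures were chosen with earlier results of these data known.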

Additional observations from a re-analysis of the deposited data

How the results depend on the processing

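With 1 list per condition, no library could be left out, and no paired analysis was possible because each condition's Odd and Even libraries were merged. Of 92 alternative values, 51 stayed within the limits set for them, 39 moved beyond these limits and 2 count ratios whose interval had lain above 1 fell below it. Of 20 alternative ratios of counts or covered length, 8 lay on the other side of 1 from the value reported, and these were the q-arm side count ratio under both filters, and in the top 25% also the count ratios of the window and the middle and all 4 ratios of covered length. Counting strong peaks alone (6-fold or more, −log10 q of 5 or above) left the ratios of covered length, the Jaccard index, and the count ratios of the window and the first 2 blocks, as well as covered lengths, within their limits. That limit lowered the asynchronous count on the q-arm side to 71, and raised the asynchronous share met to 90.7% in the window and 80.3% on the q-arm side. The ratio of q-arm side counts turned to 1.06 (0.753 to 1.48), and the share of peaks that meet at least 2 others, added after the data were seen, stayed within its interval in all 8 cases.

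The top 25% by fold enrichment turned the mitotic over asynchronous count ratio to 0.962 in the window, 0.787 in the middle block and 1.17 on the q-arm side. Counts became 226 mitotic and 235 asynchronous in the window, 86 and 63 on the p-arm side, 126 and 160 in the middle, and 14 and 12 on the q-arm side. Covered length became 994 and 1214 kb in the window, 522 and 694 kb in the middle, and 28.4 kb in each list on the q-arm side. Its ratio became 0.819 in the window, 0.901 on the p-arm side, 0.753 in the middle and 0.9999 on the q-arm side. The cause was not tested.

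A reciprocal overlap of 50% moved all shares met, to 44.0% of mitotic and 53.2% of asynchronous peaks in the window, 39.4% and 60.2% on the p-arm side, 44.1% and 54.5% in the middle, and 50.5% and 41.5% on the q-arm side. The most frequent distance moved from peak ends to 2649 bp (mitotic) and 1200 bp (asynchronous) on the p-arm side, 4504 bp (asynchronous) in the middle, and 2503 bp (mitotic) and 4769 bp (asynchronous) on the q-arm side. In a window of 25 bp it moved to 1141 and 1088 bp on the p-arm side and to 2714 and 1186 bp in the middle. The number of pairs limits these distances.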

Other observations

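Outside the window, chromosome 4 carried 36 mitotic and 3 asynchronous peaks. They were short, with a median width of 220 bp in both lists, and low, with a median fold enrichment of 4.10 in the mitotic and 4.33 in the asynchronous list. The highest fold enrichment among them was 8.65 in the mitotic and 4.68 in the asynchronous list.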
